A study of Homo sapiens with 3 samples.

Results

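Transcript levels of HCC1937 cells given the synthetic glucocorticoid dexamethasone were set against those of untreated cells of the same line. The comparison holds the 14331 array probes that carry 1 gene symbol and had a detection p-value under 0.01 on at least 1 of the 2 arrays, out of 47315 probes on the array and 30109 with 1 symbol. Of these probes 12360 were detected on both arrays, 1136 on the dexamethasone array alone and 835 on the untreated array alone. They name 10868 of the 20043 genes with a named probe, and 10852 of these were measured by their brightest probe. The established line HCC1937 came from a human breast tumour and is classed as basal in the labels. All cultures grew in DMEM that held 3 mM glucose and glutamine at 0.5 mM. Untreated cells, cells given 200 nM dexamethasone for 16 h, and cells given 200 nM dexamethasone with 1 µM retinoic acid for 16 h were profiled with 1 Illumina bead array each. The third array took part in the normalization and in the choice of each gene's brightest probe, by the mean over 3 arrays. Otherwise its values are only set beside the others.

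Dexamethasone acts through the glucocorticoid receptor, a nuclear receptor that waits in the cytoplasm in a complex with HSP90 and its co-chaperones. Bound hormone sends the receptor to the nucleus, where it activates genes through paired hexamer response elements and restrains others, often those driven by AP-1 and NF-kappaB. Epithelial targets include kinases and channels of sodium transport, feedback inhibitors of inflammation, metabolic enzymes and transcription factors. In the mammary gland glucocorticoids are best known for supporting lactogenic differentiation.

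Each side of the comparison was 1 array, so no test was run, replicates are lacking for every difference, and precision is limited by the number of arrays. A bead standard error (SE) reflects bead-to-bead spread within the arrays alone. A gene is represented by its brightest probe, and counts as higher or lower when the normalized log2 values lay 1 or more apart, that is 2-fold. "At least" before a fold marks a gene detected on 1 array only, whose fold is a bound taken from the dimmest detected probe of the array that missed it. Bead intensities are printed unscaled, with array medians of 131.6 untreated, 149.3 with dexamethasone and 159 with the combination, so folds come from the normalized values and differ from their ratios. The dexamethasone array lay on slide 2 and the others on slide 1, so that for every difference below slide and treatment cannot be told apart. In RNA from a whole culture, more cells of a kind and more RNA per cell cannot be told apart either.

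The dexamethasone array was higher by 2-fold or more for 622 of the 10852 genes (5.73%) and lower for 496 (4.57%). Over the 14331 probes the shares were 5.41% (775) and 4.91% (703). The gene shares are the background against which the counts of each gene group are read. The higher side reached further: past 4-fold there were 146 higher and 46 lower genes, and past 16-fold 22 and 2. Among the 9497 genes detected on both arrays 494 were higher (5.2%) and 438 lower (4.61%), with 10 and 1 past 16-fold. The quartiles of their log2 differences were -0.35 and 0.32. Second probes of genes past the rule had the sign of the brightest probe in 363 of 395 cases (91.9%), and those of genes within 2-fold in 70.4%. Probes of a gene share 1 RNA sample, so this speaks of probes and not of replicates.

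**Figure D1:**
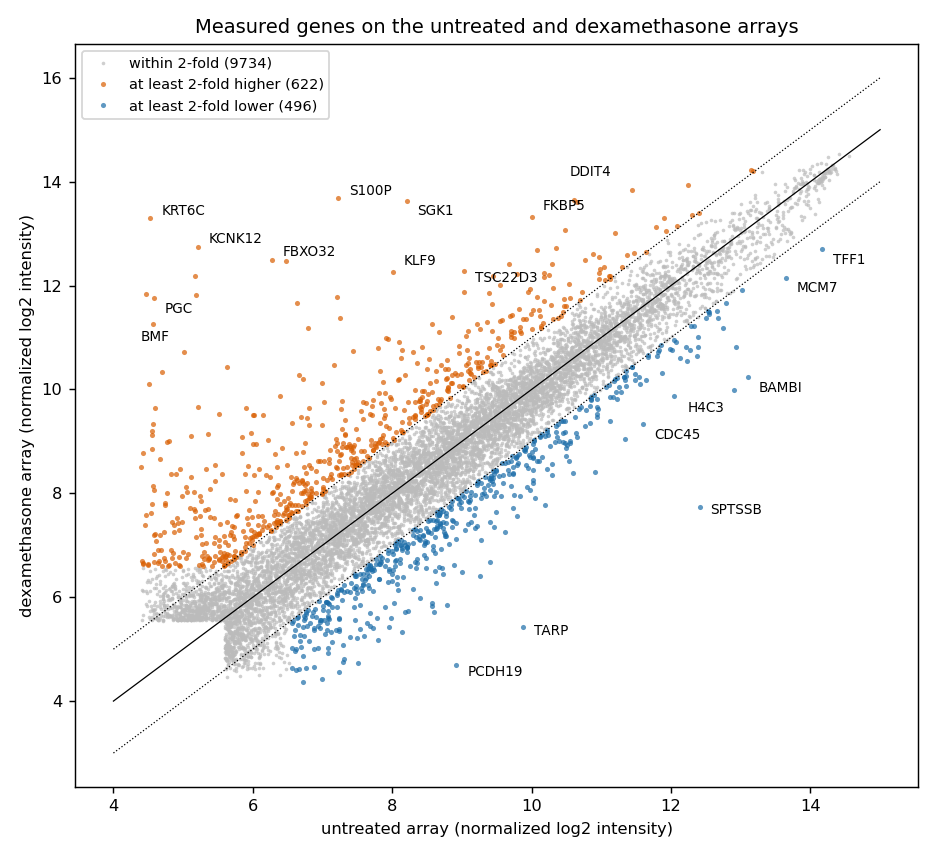
Normalized log2 intensity of each measured gene on the untreated array (horizontal axis) and the dexamethasone array (vertical axis), 1 point a gene. The solid line marks equality and the dotted lines 2-fold. The 622 higher genes (orange) reach further from the line than the 496 lower genes (blue), and grey points outside the dotted lines are genes undetected on 1 array whose bound stayed under 2-fold.

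The labelled cell type was checked first. Epithelial genes were bright on both arrays: EPCAM, an adhesion molecule of epithelia, gave 7128 untreated and 7198 with dexamethasone, and E-cadherin (CDH1) 3748 and 5331. The untreated array did not show the keratins that define basal cells, since KRT5 (bead intensity 106) and KRT14 (114) were undetected, and KRT17, TP63 and FOXC1 had no named probe here. Some luminal genes were bright on it, with TFF1 at 17170, the luminal transcription factor FOXA1 at 5118 and the estrogen receptor gene ESR1 at 1028. In the wider lists 11 of 15 measured basal and myoepithelial genes and 27 of 29 measured luminal genes were detected on both arrays. The luminal genes PGR, AGR3, KIT and DNALI1 were undetected on both, as were MYLK, CNN1, MIA, NGFR and SPARC of the basal and myoepithelial list. The line is therefore called by its name alone, and its identity was not checked further. Of 44 named markers of blood, endothelium, fibroblasts, fat, nerve, muscle, melanocytes and liver, 11 were detected on at least 1 of the 2 arrays, and 0 of these 11 differed by 2-fold. The defining markers PTPRC, CD14, PECAM1, VWF, COL1A2, ADIPOQ and DES were undetected on both.

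The receptor and the enzymes that set its ligand were examined next. NR3C1, which encodes the glucocorticoid receptor, gave bead intensities of 234, 325 and 321 on the untreated, dexamethasone and combination arrays, a log2 difference of 0.15 (bead SE 0.17) for dexamethasone. The mineralocorticoid receptor gene NR3C2, whose product binds the same hormones, passed detection with dexamethasone (186) but not without (141), with a log2 difference of at least 0.42. Neither receptor gene was past 2-fold. Of 9 measured genes of this group 5 were higher (55.6%) and 0 were lower. Their median log2 difference was 1.06 against 0.00 over all measured genes. The median was 0.64 without background correction, 0.65 with the authors' deposited normalized values (3 higher in either case) and 0.73 with an offset of 50.

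HSD11B2 inactivates cortisol to cortisone, and was the member with the largest difference. Its intensity was 157 untreated, 838 with dexamethasone and 655 with the combination, which made it 11.4-fold higher after dexamethasone (log2 difference 3.52, bead SE 0.24). Both treated arrays were clearly brighter than the untreated one. SRD5A1, a steroid 5-alpha reductase, gave 299, 1982 and 1123 and was 7.05-fold higher (2.82, bead SE 0.11). The sterol sulfotransferase gene SULT2B1 was 2.49-fold higher (1.32, and 0.54 on its other detected probe). AKR1C3, a ketosteroid reductase, was 2.47-fold higher, and H6PD, which supplies NADPH to the reductase HSD11B1 in the endoplasmic reticulum, 2.09-fold. AKR1C family transcripts are close in sequence, so reads of AKR1C3 and AKR1C2 (0.67) may share signal. HSD11B1 itself and the drug efflux pump gene ABCB1 were undetected on both arrays.

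Most receptor chaperones lay within 2-fold, and the immunophilins that compete for the receptor complex differed in direction. FKBP5, which lowers hormone binding of the receptor, gave 856, 10504 and 9172 and was 9.92-fold higher (3.31, bead SE 0.09). FKBP4, which favours nuclear transport of the receptor, gave 2536, 1240 and 1988 and was 2.76-fold lower (-1.47, bead SE 0.05). Both treated arrays were brighter for the first and dimmer for the second. HSP90 genes differed little, HSP90AA1 by -0.23 and HSP90AB1 by -0.01, as did PTGES3 (p23) by -0.22 and STIP1 (HOP) by -0.29. DNAJB1, an HSP40 co-chaperone, was 2.32-fold higher. In all 2 of 14 were higher, 1 lower and the other 11 within 2-fold (median -0.22). Among 14 measured coregulators 0 passed the rule in either direction (median -0.17). Their range ran from CARM1, an arginine methyltransferase, at -0.88 to the acetyltransferase gene EP300 at 0.82.

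Known glucocorticoid target genes were split by role. The list was chosen as genes that glucocorticoids induce in other cells, but with earlier results of these data known. Its shares and medians are therefore no independent evidence of a response. The transcription factor targets had 13 higher and 1 lower of 23 measured (56.5% and 4.35%, median 1.21). KLF9, a Krüppel-like repressor, led them with intensities of 290, 4822 and 5119, 19.1-fold higher after dexamethasone (4.25, bead SE 0.12). KLF4, a regulator of epithelial differentiation, gave 189, 903 and 827 and was 7.17-fold higher, with 2.49 on its other detected probe. ZBTB16 (PLZF) was undetected in untreated cells and at least 6.86-fold higher (128, 449 and 366), with bounds of 0.46 and 1.39 on its other detected probes. BCL6, a zinc finger repressor, gave 375, 2467 and 3201 and was 6.42-fold higher (2.68, bead SE 0.10).

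The FOXO factors, which drive atrophy and cell cycle exit genes, were also higher. FOXO1 gave 154, 448 and 315 (5.59-fold) and FOXO3 gave 895, 3486 and 3847 (3.25-fold, bead SE 0.08). SNAI2 was 6.65-fold higher, CEBPD 4.17-fold and KLF6 3.89-fold. For each of these 5 genes both treated arrays were brighter than the untreated array. PER2, a clock repressor, was the 1 lower member (2.14-fold), and PER1 passed detection with dexamethasone (202) but not without (122), with a bound of 0.71. KLF15 and TFCP2L1 were undetected on both arrays.

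Metabolic targets had 14 higher and 1 lower of 23 (60.9% and 4.35%), and the highest median of all lists, 1.57. FBXO32, the atrophy ubiquitin ligase, gave 166 untreated, 5754 with dexamethasone and 3449 with the combination, and was 74.5-fold higher (6.22, bead SE 0.20, with a bound of 5.07 on its other detected probe). ACSL1, which activates long-chain fatty acids, gave 281, 2071 and 3812 (8.16-fold). MAOA, which oxidizes monoamines, was undetected in untreated cells and at least 6.89-fold higher (130, 450 and 198). This gene was far brighter with dexamethasone alone than with the combination. ERRFI1, a feedback inhibitor of EGF receptors, was 6.09-fold higher (2.61, bead SE 0.07), and DDIT4, an inhibitor of mTORC1, 5.27-fold (2184, 15932 and 14048). The tubulin gene TUBA3C was at least 9.10-fold higher and TUBA3E at least 26.7-fold, but these copies are nearly identical. PDK4, a common glucocorticoid target, was undetected on both arrays.

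Metallothioneins, small metal-binding proteins of the same list, were higher for 4 of the 5 members. MT2A gave 3763, 17046 and 20062 and was 3.23-fold higher (1.69, bead SE 0.09), MT1G was 4.27-fold higher, MT1X 3.30-fold and MT1E 2.38-fold. MT1F was 2.41-fold lower (388, 288 and 241). Their sequences are close, so single members cannot be assigned with certainty.

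Signalling targets were less uniform, with 4 higher and 2 lower of 22 (18.2% and 9.09%, median 0.33). SGK1, the kinase that keeps epithelial sodium channels at the surface, gave 314, 13421 and 12358, and its other detected probes gave log2 differences of 5.65 and 5.44 beside 5.43 (43.0-fold) for the brightest. All 3 probes thus gave close values. EDN2, an endothelin, was at least 5.65-fold higher (142, 390 and 405), RGS2, an inhibitor of G protein signalling, 4.21-fold, and the sulfate transporter gene SLC26A2 3.45-fold (421, 1590 and 632). The arrestin-domain gene ARRDC2 was 2.31-fold lower on its brightest probe and differed by 0.07 on the other. CRISPLD2 was 2.03-fold lower with intensities of 197, 183 and 220, a difference that rests on dim values (-1.02, bead SE 0.31).

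Anti-inflammatory targets had 5 higher and 2 lower of 14 (35.7% and 14.3%, median 0.62). DUSP1, the phosphatase that inactivates p38 and JNK, gave 479, 4840 and 3094 and was 9.43-fold higher. SERPINA3, an acute-phase protease inhibitor, gave 1243, 13540 and 18497 and was 8.19-fold higher (3.04, bead SE 0.07). TSC22D3 (GILZ), which binds AP-1 and NF-kappaB, gave 478, 3680 and 12007 and was 7.12-fold higher, with 3.36 on a probe detected on both arrays and a bound of 1.92 on the remaining one. It was the only one of these 3 more than 2-fold brighter with the combination than with dexamethasone alone by bead intensity. TNFAIP3 (A20), which removes ubiquitin chains in NF-kappaB signalling, was at least 4.27-fold higher, and NFKBIA, the inhibitor that holds NF-kappaB in the cytoplasm, sat at the threshold (4271, 11184 and 15853, log2 difference 1.00). The annexin gene ANXA1, a classical mediator of glucocorticoid action, differed by 0.73. The lower members were SPHK1 (2.90-fold) and the adenosine receptor gene ADORA1 (2.39-fold). Without background correction 3 of the list were higher and 0 lower.

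**Figure D2:**
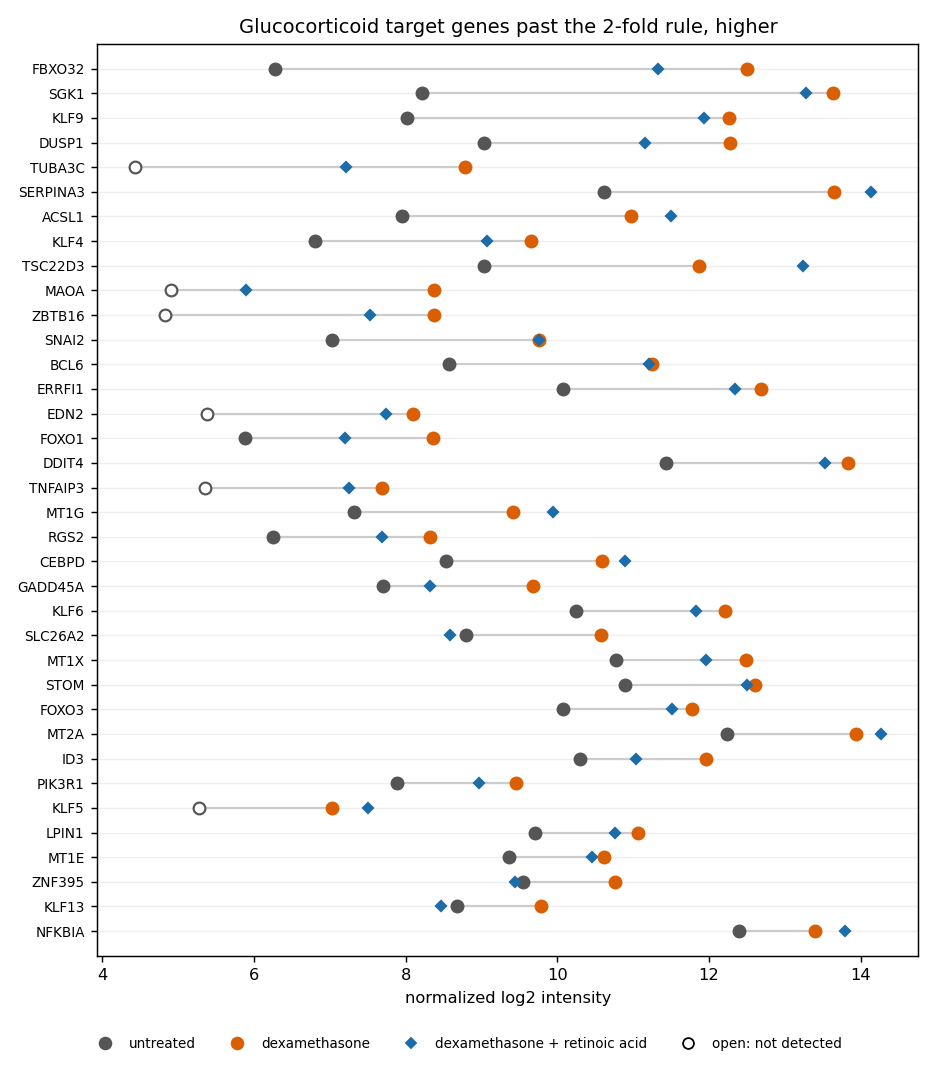
Normalized log2 intensity (horizontal axis) of the glucocorticoid target genes past the 2-fold rule on the higher side, 1 row a gene, with circles for the untreated (grey) and dexamethasone (orange) arrays and diamonds for the combination (blue). Open symbols are undetected. FBXO32, SGK1 and KLF9 show the widest gaps, and for SLC26A2, ZNF395 and KLF13 the combination lies at or below the untreated value.

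Inhibitors of MAP kinase signalling were higher for 5 of 18 measured (27.8%), and 0 were lower (median 0.46). Beside DUSP1 and ERRFI1 these were the Sprouty genes SPRY4 (158, 353 and 300, 3.55-fold) and SPRY2 (172, 352 and 340, 2.66-fold), which block RAS activation, and the ERK phosphatase gene DUSP5 (458, 1728 and 856, 3.36-fold). The other probe of SPRY4, undetected in untreated cells, gave a bound of 0.56. Without background correction or with the authors' deposited normalized values 3 of the group were higher. Among genes described here as past the rule, SPRY2 alone had a RefSeq promoter window with a receptor motif wholly before the start site. The windows run from 250 bases before to 50 after each start. The first motif searched was the inverted repeat of receptor half-sites with a gap of 3 bases, and the other a full left half-site with the core of the right one. Both strands were read, and a match to one can overlap a match to the other. The first occurred in windows of 4 of 506 higher genes (0.791%), 3 of 380 lower genes (0.789%) and 32 of 8793 measured genes with a window (0.364%). The second occurred in 2 higher genes (0.395%), 0 lower genes and 17 measured genes (0.193%). A match is a description of letters only, and few windows of any group held one. The 250 bases before the SPRY2 start follow, from RefSeq on GRCh38.p14, chr13:80339660-80339909, minus strand, with the match to the second motif in capitals.
SPRY2: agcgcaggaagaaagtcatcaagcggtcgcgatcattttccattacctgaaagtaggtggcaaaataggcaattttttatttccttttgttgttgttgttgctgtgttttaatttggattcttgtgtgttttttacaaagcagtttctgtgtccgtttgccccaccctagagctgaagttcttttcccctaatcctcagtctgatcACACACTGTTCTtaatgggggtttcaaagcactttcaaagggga
The capitals begin 44 bases before the start and read as the reverse complement of the second motif.

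Transport of sodium and water was examined as a further receptor-controlled function. Of 22 measured genes 6 were higher (27.3%) and 1 lower (median 0.38, but 0.20 among genes detected on both arrays, of which 2 were higher). SCNN1G, the gamma subunit of the epithelial sodium channel, gave 125, 626 and 583 and was at least 10.5-fold higher, with a bound of 2.41 on its other detected probe. SCNN1B, the beta subunit, gave 125, 376 and 261 (at least 5.33-fold), and the alpha subunit gene SCNN1A gave 315, 699 and 2839, just under 2-fold (0.98, bead SE 0.09). All 3 subunits were brighter on the treated arrays. The potassium channel gene KCNK12 gave 138, 6884 and 1163 and was at least 142-fold higher. AQP3, a water and glycerol channel, was at least 3.08-fold higher and STK39, a kinase of chloride cotransporters, 2.44-fold, while the cotransporter gene SLC12A2 was 2.58-fold lower.

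DNA replication was the group with the lowest median, -1.07. Of 39 measured genes 23 were lower (59.0%) and 0 higher, and 38 of the 38 detected on both arrays had a difference below 0. CDC45, part of the replicative helicase, gave 2459 untreated, 752 with dexamethasone and 1700 with the combination, 4.81-fold lower (-2.27, bead SE 0.08). GINS2, of the same helicase, gave 3357, 1037 and 1939 (4.49-fold), and MCM10, which activates it, gave 883, 362 and 829 (4.42-fold, and -2.38 on its other detected probe). The dexamethasone array was the dimmest of the 3 for each of these. The clamp loader subunit gene RFC2 was 3.84-fold lower (584, 298 and 668), RRM2 of ribonucleotide reductase 3.83-fold (1026, 445 and 857), and POLA2 of the primase complex 3.39-fold. CDT1, which loads the helicase, was 3.35-fold lower (1756, 775 and 956), and FEN1, the flap nuclease of lagging strands, 3.33-fold (4162, 1655 and 3184, -1.73, bead SE 0.07).

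The MCM2 to MCM7 subunits of the helicase ring were lower for 4 of 6. MCM7 was 2.81-fold lower on its brightest probe and differed by -3.21 on another detected on both arrays, while the third was near background on both. MCM2 was 2.75-fold lower, MCM6 2.32-fold and MCM5 2.10-fold, and MCM3 and MCM4 differed by -0.81 and -0.73. DUT, which keeps uracil out of DNA, was 2.61-fold lower on its brightest probe and -1.59 and 0.62 on the others. The difference nearest 0 in the group was -0.11.

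Genes of BRCA1-dependent repair were lower too. Of 24 measured 14 were lower (58.3%) and 0 higher (median -1.06). Without background correction 6 were lower, and 5 with the authors' deposited normalized values. EXO1, which resects broken ends, gave 606, 287 and 495 and was 4.32-fold lower (-2.11, bead SE 0.13, with a bound of -2.08 on its other detected probe). RAD54L, a DNA translocase, gave 384, 238 and 320 (3.42-fold), and H2AX, the histone marked at breaks, 1207, 631 and 681 (2.92-fold). BRCA1 gave 435, 287 and 497 and was 2.82-fold lower (-1.49, bead SE 0.14), with -1.70 on its other detected probe. Both of its probes thus gave lower values with dexamethasone. FANCB, of the Fanconi core complex, was 2.79-fold lower, RAD54B 2.41-fold, FANCI 2.38-fold and XRCC3 2.37-fold.

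**Figure D3:**
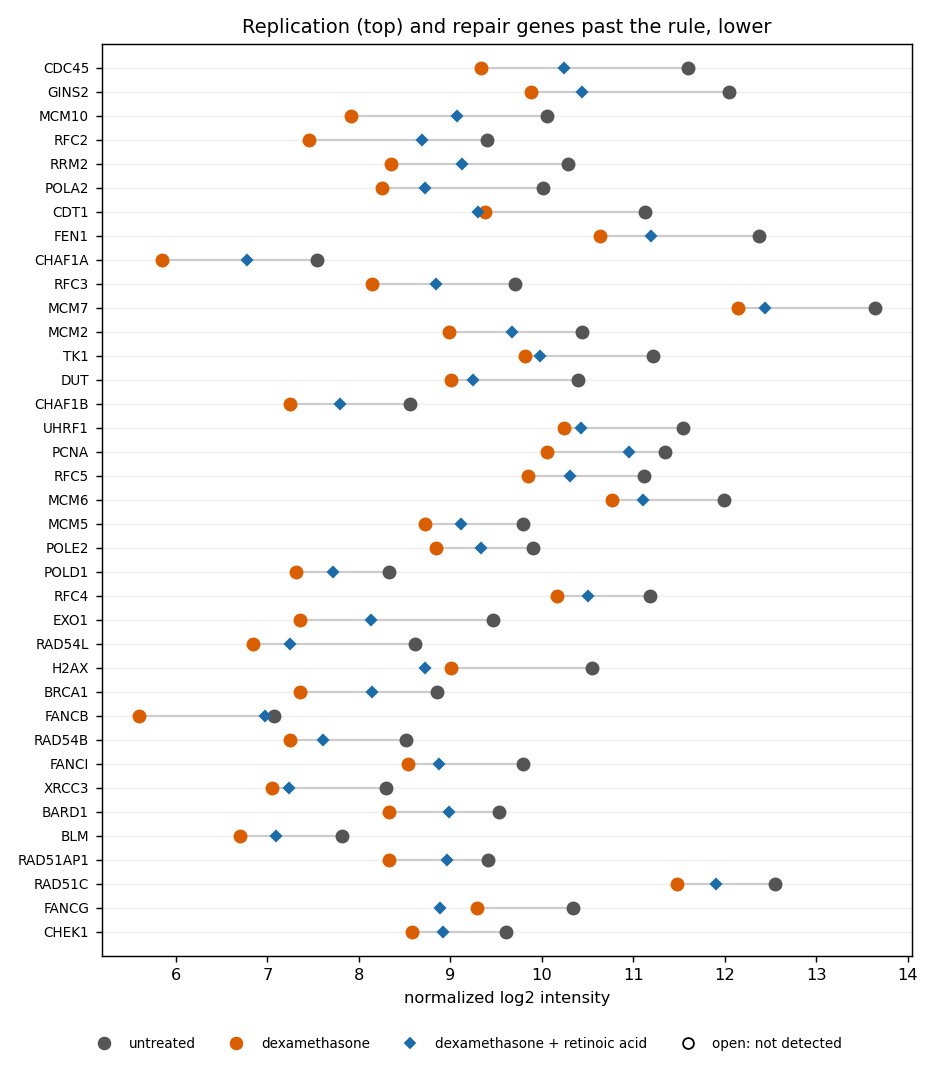
Normalized log2 intensity (horizontal axis) of the replication genes (CDC45 to RFC4) and the repair genes (EXO1 to CHEK1) past the 2-fold rule on the lower side, 1 row a gene. Circles are the untreated (grey) and dexamethasone (orange) arrays and diamonds the combination (blue). Most combination values lie between the other two, and for CDT1, H2AX and FANCG they lie below the dexamethasone value.

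Mitotic genes differed less. Of 40 measured 4 were lower (10%) and 1 higher (2.50%). The median was -0.42, and 37 lay below 0. Without background correction or with the deposited normalized values 2 were lower. BIRC5 (survivin), which guides chromosome segregation, gave 1803, 1018 and 1166 and was 2.50-fold lower, and PLK1, a mitotic kinase, 2.16-fold. CENPN, of the kinetochore, was 2.13-fold lower and cyclin A2 (CCNA2) sat at the threshold (1880, 1279 and 2151). CDC25B, the phosphatase that activates mitotic CDK1, was the higher member (1732, 4576 and 2925, 2.10-fold).

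Several inhibitors of the cell cycle were higher, as was the kinase gene CDK6. Among CDK inhibitors, G1 cyclins and p53 targets 8 of 28 were higher (28.6%) and 1 lower (3.57%, median 0.30). CDKN2B (p15), an inhibitor of CDK4 and CDK6, was undetected in untreated cells and at least 5.73-fold higher (133, 394 and 347). CCNG2, an atypical cyclin linked to cycle exit, gave 241, 966 and 795 (4.52-fold), and GADD45B, a stress-inducible regulator, 335, 1519 and 2450 (4.45-fold). GADD45A was 3.93-fold higher and TP53INP1, a p53-induced gene, 3.70-fold. CDKN1A (p21) gave 2254, 6410 and 4093, 2.23-fold higher (1.16, bead SE 0.06). The D cyclins differed in direction. CCND2 was at least 3.03-fold higher, but 0.40 on its other probe, which was detected on both arrays, and CCND1 differed by -0.80. E2F2, an activator of S phase genes, was 3.42-fold lower (1168, 537 and 598). CDKN1C (p57), a glucocorticoid target in other cells, was undetected.

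Core histone genes split in both directions, with 4 of 19 higher and 3 lower. H4C3, a histone H4 copy, gave 5951 untreated, 1098 with dexamethasone and 6742 with the combination, 7.61-fold lower (-2.93, bead SE 0.07). H4C8, another H4 copy, gave 395, 2228 and 1628, 5.36-fold higher. H2BC21 was 3.32-fold higher and H2BC11 3.17-fold lower. Without background correction or with the deposited normalized values 1 was lower. Histone copies are near-identical, and most of their transcripts lack the poly(A) tail that oligo(dT) priming uses.

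Autophagy and FOXO-linked genes were higher for 9 of 23 (39.1%), with 0 lower and a median of 0.74. Of these 9, FBXO32, FOXO1 and FOXO3 were already counted with the glucocorticoid targets, and CCNG2 with the CDK inhibitors and cyclins. KLHL24, an adaptor of ubiquitin ligases, gave 164, 639 and 890 (7.04-fold). ULK2, an initiating kinase of autophagy, was at least 3.81-fold higher (143, 307 and 296), WIPI1, which binds the growing membrane, 2.93-fold, and GABARAPL1, which lines it, at least 2.63-fold. ULK1 differed by 0.79. TRIM63, the second atrophy ligase, was undetected.

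Regulators of cell death differed in direction. BMF, a BH3-only protein that promotes apoptosis, gave 133, 1742 and 1208 and was at least 34.8-fold higher, with a bound of 4.79 on its other detected probe. BCL2, which blocks apoptosis, gave 710, 332 and 405 and was 4.02-fold lower (-2.01, bead SE 0.12, and -2.17 on its other detected probe). On both treated arrays the first was brighter and the second dimmer than in untreated cells. PMAIP1 (NOXA) was 2.89-fold higher and MCL1 2.44-fold, with a bound of 0.36 on the other probe of PMAIP1 and 0.40 on that of MCL1. With the median over detected probes 1 of the group was higher. In all 3 of 23 were higher and 2 lower (13.0% and 8.70%, median 0.34). BCL2L11 (BIM), a glucocorticoid target in lymphoid cells, was undetected.

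Estrogen receptor targets were lower for 10 of 24 measured genes (41.7%), with 2 higher (8.33%) and a median of -0.71. Of the lower genes BCL2 was already counted with cell death, and EGR3 is counted again with the immediate early genes, as is the higher gene FOS. RET, a receptor tyrosine kinase, gave 539, 208 and 254 and was 7.16-fold lower (-2.84, bead SE 0.15, and -2.00 on its other detected probe). IL17RB, the interleukin-25 receptor, gave 381, 174 and 249 (-2.89 on the log2 scale), and the scaffold gene PDZK1 375, 179 and 187 (6.69-fold). CXCL12, a chemokine, was detected in untreated cells alone (282, 165 and 171, at least 5.30-fold lower). All 4 were dimmer on both treated arrays. SUSD3 gave 2028, 646 and 1277 (4.92-fold), MYB, a transcription factor, 1236, 451 and 1169 (4.63-fold), and ESR1 itself 1028, 491 and 942 (3.33-fold, -1.73, bead SE 0.09). SIAH2, a ubiquitin ligase, was 2.22-fold higher, and GREB1 and CCND1 differed by 0.82 and -0.80.

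Luminal markers were lower for 8 of 29 (27.6%) and higher for 2 (6.90%). Of the lower ones TFF1 and MYB were already counted with the estrogen receptor targets. AGR2, a secretory disulfide isomerase, gave 470, 212 and 217 (5.70-fold lower), GATA3 1201, 614 and 1106 (3.00-fold) and TFF1, the brightest of them in untreated cells, 17170, 6694 and 6718 (2.77-fold). The higher members were KRT7, a keratin of ducts, at 3.24-fold, and PRLR, the prolactin receptor, which gave 355, 1085 and 640 (2.84-fold, with a bound of 1.51 on its other detected probe). KRT8 and KRT19, the main simple keratins, differed by 0.40 and 0.32.

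Basement membrane and hemidesmosome genes were higher for 11 of 21 (52.4%) and lower for 2 (9.52%), with a median of 1.04. Their median was 0.52 without background correction and 0.48 with the authors' deposited normalized values, with 6 higher and 1 lower in either case. COL4A1 and COL4A2 encode the main chains of type IV collagen. The first gave 272, 1216 and 1529 (4.83-fold, bead SE 0.08) and the second, undetected in untreated cells, 130, 308 and 223 (at least 3.82-fold). COL4A5, a chain of specialised membranes, gave 153, 554 and 235 (7.65-fold, but a bound of 0.00 on its other detected probe). PLEC, which ties keratin to hemidesmosomes, gave 213, 563 and 320 (3.04-fold), and the laminin chain genes LAMB2 and LAMB3 were 3.03-fold and 2.90-fold higher. For COL4A5 and PLEC the combination array lay nearer the untreated one.

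Integrins, the receptors for these proteins, were mixed. ITGA5, a fibronectin receptor chain, was 2.90-fold higher (223, 588 and 708), ITGB4, of the hemidesmosome, 2.62-fold (175, 360 and 171), and its partner ITGA6 2.16-fold. ITGB5, a vitronectin receptor chain, gave 3693, 1881 and 2501 and was 2.62-fold lower, with -1.35 and -1.23 on its other detected probes, and the collagen receptor gene ITGA2 was 2.25-fold lower.

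Cell junction genes had 4 higher and 0 lower of 18 (22.2%, median 0.18). DSP (desmoplakin), the desmosomal plaque protein, gave 739, 4705 and 2496 (5.42-fold, bead SE 0.09, and 2.32 on its other detected probe). The tight junction gene CGN was 2.55-fold higher, DSG2, a desmosomal cadherin, 2.43-fold and CLDN1 2.10-fold. Genes of the mesenchymal list were higher for 7 of 19 (36.8%), with 0 lower (median 0.31). The transcription factor gene SNAI2, described above, was among these 7. TAGLN (transgelin) gave 266, 1374 and 1196 (5.76-fold), and TPM1 (tropomyosin) 1027, 5376 and 5520 (4.35-fold, with 1.99 on a second probe detected on both arrays and bounds of 0.98 and 0.92 on others). The transcription factors SNAI1, ZEB1 and ZEB2, and the defining mesenchymal genes CDH2 and FN1, were undetected on both arrays, and VIM differed by -0.08.

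Some keratins of stratified and stressed epithelium were far brighter with dexamethasone alone than on the other arrays. KRT6C gave 115 untreated, 10278 with dexamethasone and 214 with the combination (at least 207-fold higher), but KRT6A and KRT6B are almost identical in sequence. KRT16, their usual partner, gave 137, 4575 and 159 (at least 95.9-fold, with a bound of 5.15 on its other detected probe). KRT5 gave 106, 479 and 139 (at least 7.54-fold), and TRIM29, a basal epithelial gene, 110, 290 and 130 (at least 3.46-fold). These 4 genes were brighter on the dexamethasone array than on either other array. KRT15, a keratin of basal cells, was instead brighter on both treated arrays (138, 367 and 479, at least 5.11-fold higher). CALML5, a calmodulin-like protein of differentiating skin, gave 180, 3275 and 1893 (32.9-fold). In all 5 of 14 genes of the cornification list and 7 of 15 basal markers were higher (35.7% and 46.7%), and 0 of either were lower. Of these basal markers ITGA6, ITGB4 and LAMB3 were already counted with the hemidesmosome genes, and CRYAB is counted again with the heat shock genes. The other 9 cornification genes were within 2-fold. The basal median was 0.74, but 0.11 among the genes detected on both arrays, of which 3 were higher, and 4 basal markers were higher without background correction or with the deposited normalized values.

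Heat shock and stress genes stood out on the same array. HSPA6, a strictly inducible HSP70, gave 137, 3581 and 192 (at least 74.5-fold higher, but 1.41 on its other probe, which was detected on both arrays), and its near copy HSPA7 147, 1454 and 194. CRYAB, a small heat shock protein, gave 117, 673 and 185 (at least 11.6-fold), HMOX1, the inducible heme oxygenase, 435, 2737 and 1030 (5.83-fold), and DDIT3 (CHOP), a factor of the integrated stress response, 189, 743 and 247 (5.66-fold). All 5 were much dimmer on the combination array, which also held dexamethasone. The constitutive HSPA8 and the mitochondrial chaperonin gene HSPD1 differed by -0.27 and -0.18. The inducible copies HSPA1A and HSPA1B, close in sequence, differed by -0.70 and 0.47. Of 19 measured heat shock genes 6 were higher (31.6%) and 0 lower (median 0.17). PPP1R15A (GADD34), which ends translational arrest, was 3.31-fold higher (691, 2765 and 1281), and with DDIT3 it made up the 2 higher of 24 unfolded protein response genes (0 lower, median -0.09). The part of these stress genes' differences in the keratin differences above was not tested.

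**Figure D4:**
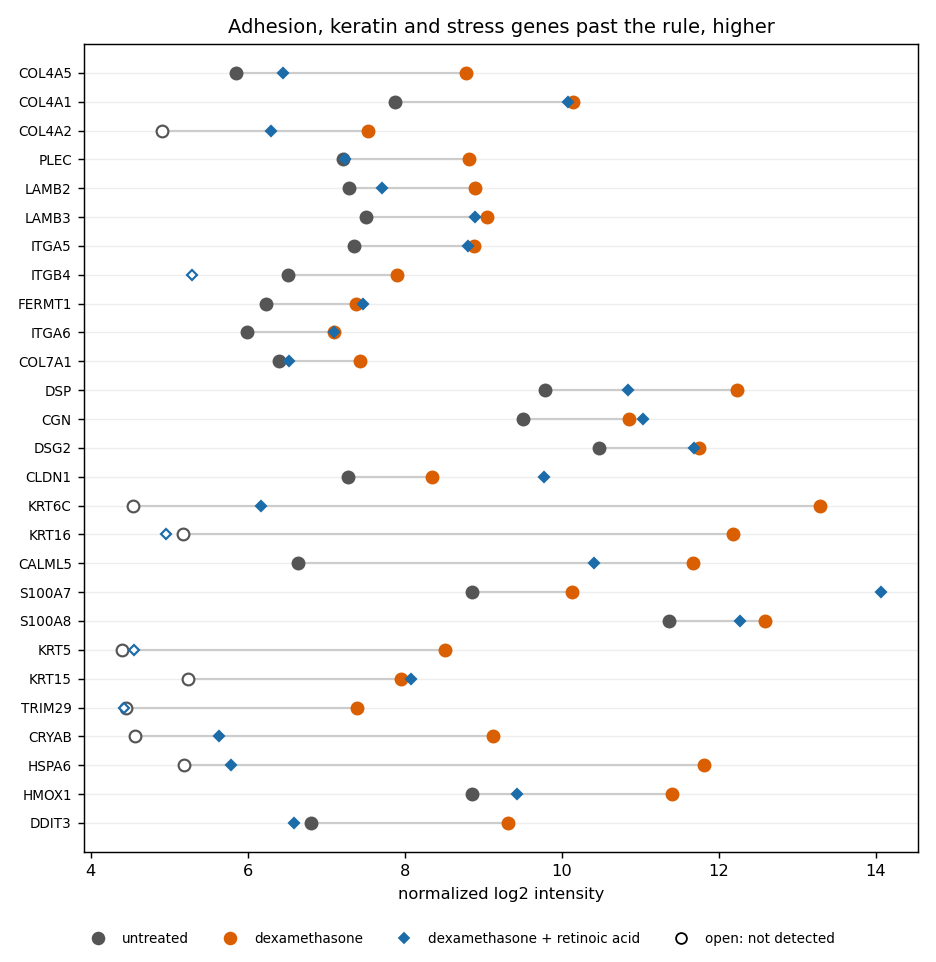
Normalized log2 intensity (horizontal axis) of adhesion, keratin and stress genes past the 2-fold rule on the higher side, 1 row a gene. Circles are the untreated (grey) and dexamethasone (orange) arrays, diamonds the combination (blue), and open symbols are undetected. KRT6C, KRT16, KRT5, TRIM29, CRYAB and HSPA6 are high on the dexamethasone array alone, and COL4A1, LAMB3, DSG2 and KRT15 on both treated arrays.

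Immediate early genes, whose products include AP-1, were higher for 8 of 22 (36.4%) and lower for 2 (9.09%, median 0.65). FOS was undetected in untreated cells and gave 131, 472 and 513 (at least 7.37-fold), ATF3 146, 447 and 226 (at least 6.81-fold) and EGR1 275, 1063 and 617 (4.11-fold). BTG1, an antiproliferative factor, gave 1153, 8864 and 5838 (6.06-fold, bead SE 0.06). EGR3 was 4.87-fold lower (405, 209 and 199) and IER3 4.34-fold (6066, 1874 and 2999). Both were dimmer on the treated arrays, and the 12 members within 2-fold ran from MAFF at -0.84 to CCN1 at 0.92. The other probe of MAFF, undetected in untreated cells, gave a bound of 1.54 in the higher direction. Among genes detected on both arrays 5 were higher.

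Cytokines and chemokines had 5 higher and 4 lower of 17 measured (29.4% and 23.5%, median -0.08). CXCL16, a transmembrane chemokine, gave 585, 225 and 372 (6.64-fold lower), and IL20, of the interleukin-10 family, 420, 180 and 1760 (7.63-fold lower). The latter was dimmest with dexamethasone and brightest with the combination. CXCL8, a neutrophil chemokine, gave 217, 711 and 1366 (3.86-fold higher, and 0.71 on its other detected probe), and CCL20 at least 4.28-fold. IL6, IL1B and PTGS2, which glucocorticoids repress in other cells, were undetected on both arrays, so no reduction could be seen. Without background correction or with the deposited normalized values 1 of the 17 was higher and 2 lower, and the median was -0.58 among those detected on both arrays. The NF-kappaB pathway list had 4 of 24 higher (16.7%) and 0 lower, namely NFKBIA and TNFAIP3, already counted above, with the kinase gene IRAK2 and the interleukin-1 receptor gene IL1R1. Without background correction 0 were higher, and 1 was with an offset of 50, with scaling to the 75th percentile, with the deposited values or among genes detected on both arrays. The interferon genes had 0 of 23 higher and 2 lower.

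Ligands and receptors of the BMP and TGF-beta family had 3 higher and 3 lower of 16 (18.8% each, median 0.00). BMP7, a morphogen, gave 1502, 457 and 295 (5.63-fold lower), and TGFB3, a ligand, 742, 311 and 222 (4.72-fold lower). BAMBI, a decoy receptor, gave 6888, 1283 and 10129, 7.31-fold lower with dexamethasone alone. TGFBR2, the ligand-binding receptor, gave 494, 1628 and 1640 (2.83-fold higher, and 1.85 on its other detected probe), and the target gene TGFBI was 2.82-fold higher. Among growth factor receptors FGFR3 was 5.33-fold lower (968, 342 and 287), though its other probe, undetected in untreated cells, gave a bound of 0.48 in the higher direction. FGFR4 was 2.54-fold lower, with -0.80 on its other detected probe. EGFR and ERBB2 differed by 0.74 and -0.22. Of the Notch ligands JAG2 was 3.48-fold lower (427, 252 and 382), and JAG1 and DLL1 were at least 2.37-fold and 2.44-fold higher.

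Lipid synthesis was divided. Cholesterol genes had 0 higher and 5 lower of 26 (19.2%, median -0.60), led by INSIG1, a sterol sensor (2274, 1250 and 2641, 2.46-fold lower, with -1.30 on its other detected probe too). Without background correction or with the deposited normalized values 1 was lower, and 2 were with an offset of 50. ABCG1 was 2.18-fold lower on its brightest probe, with -1.15 and 0.16 on the others. Fatty acid genes had 6 higher and 3 lower of 26 (23.1% and 11.5%), and 1 lower with the deposited normalized values. FADS1, the delta-5 desaturase, gave 596, 3222 and 4126 (4.61-fold higher), and ELOVL5, an elongase of polyunsaturated chains, 961, 3356 and 8596 (2.88-fold). ACACB, which makes the malonyl-CoA that limits mitochondrial uptake, gave 263, 170 and 158 (4.57-fold lower), and ELOVL6, an elongase of saturated chains, was 2.72-fold lower. The subunits of serine palmitoyltransferase differed in direction: SPTSSB gave 4302, 335 and 374 (25.5-fold lower, and -3.74 on its other detected probe) and its paralogue SPTSSA 638, 2575 and 1293 (3.38-fold higher).

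Groups that carry out core functions stayed close to 0 on the brightest probes of their genes. Of 32 measured ribosomal protein genes 0 passed the rule, with differences from -0.23 to 0.75 and a median of 0.10. Other probes, detected on both arrays, differed by -1.24 for RPL13, -1.05 for RPL8 and 1.19 for RPL32. Of 28 respiratory chain genes 0 passed it either (-0.69 to 0.60, median 0.20), and of 27 ribosome biogenesis genes 1 was lower (NOP56, a snoRNP protein, 2.27-fold, median -0.29). Glycolysis had 1 higher and 2 lower of 27 (median -0.24), with SLC2A3, a glucose transporter, at 2.17-fold higher. Fatty acid oxidation genes had 0 of 16 past the rule.

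Outside these roles, the naming rule took the 20 largest differences in each direction among genes detected on both arrays. S100P, a calcium-binding protein, gave 213, 13880 and 16061 (87.7-fold higher). AMOT (angiomotin), which binds the coactivator YAP, gave 188, 2361 and 514 (21.0-fold), and SYBU (syntabulin), a kinesin adaptor, 215, 2678 and 3068 (17.4-fold). RPS6KA2, a ribosomal S6 kinase, was 13.3-fold higher (154, 900 and 569), SPSB1, a ubiquitin ligase adaptor, 12.3-fold, the amino acid transporter gene SLC7A8 11.4-fold, GMPR, a purine reductase, 11.2-fold, and CASTOR1, an arginine sensor of mTORC1, 9.90-fold. On the combination array SLC7A8 and GMPR were within 2-fold of untreated (0.78 and 0.87), and S100P and SYBU were as far above it as with dexamethasone alone (6.63 and 3.89).

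Lower genes from this rule included ITPKA, an inositol trisphosphate kinase (375, 181 and 195, 6.44-fold), ACOX2, a peroxisomal oxidase (311, 174 and 167, 5.56-fold), the kisspeptin receptor gene KISS1R (344, 185 and 191, 5.35-fold) and ABAT, which degrades GABA (384, 200 and 230, 5.09-fold). Each was dim in untreated cells and close to background on both treated arrays. The tubulin delta and epsilon complex gene TEDC2 was 5.16-fold lower (664, 276 and 355).

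Genes seen with dexamethasone but not in untreated cells included PHACTR3, a regulator of phosphatase and actin (111, 3643 and 1146, at least 76.0-fold, with a bound of 5.01 on its other detected probe), the pepsinogen gene PGC (118, 3451 and 4282, at least 71.7-fold) and MAP7D2, a microtubule protein (117, 2480 and 1295, at least 50.6-fold). DDC, which makes dopamine and serotonin, gave 114, 1183 and 201 (at least 22.7-fold), and CYP4F22, which hydroxylates the fatty acids of skin ceramides, 117, 754 and 153 (at least 13.4-fold). Both were dim again on the combination array. SELENOP, a selenium carrier, gave 144, 844 and 832 (at least 15.3-fold). In the other direction TARP, a transcript of the T cell receptor gamma locus known in hormone-responsive tumours, gave 787, 164 and 281 (at least 20.1-fold lower), PCDH19, a protocadherin, 449, 138 and 135 (at least 10.3-fold), and NKD2, a Wnt inhibitor, 306, 162 and 211 (at least 6.04-fold).

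**Figure D5:**
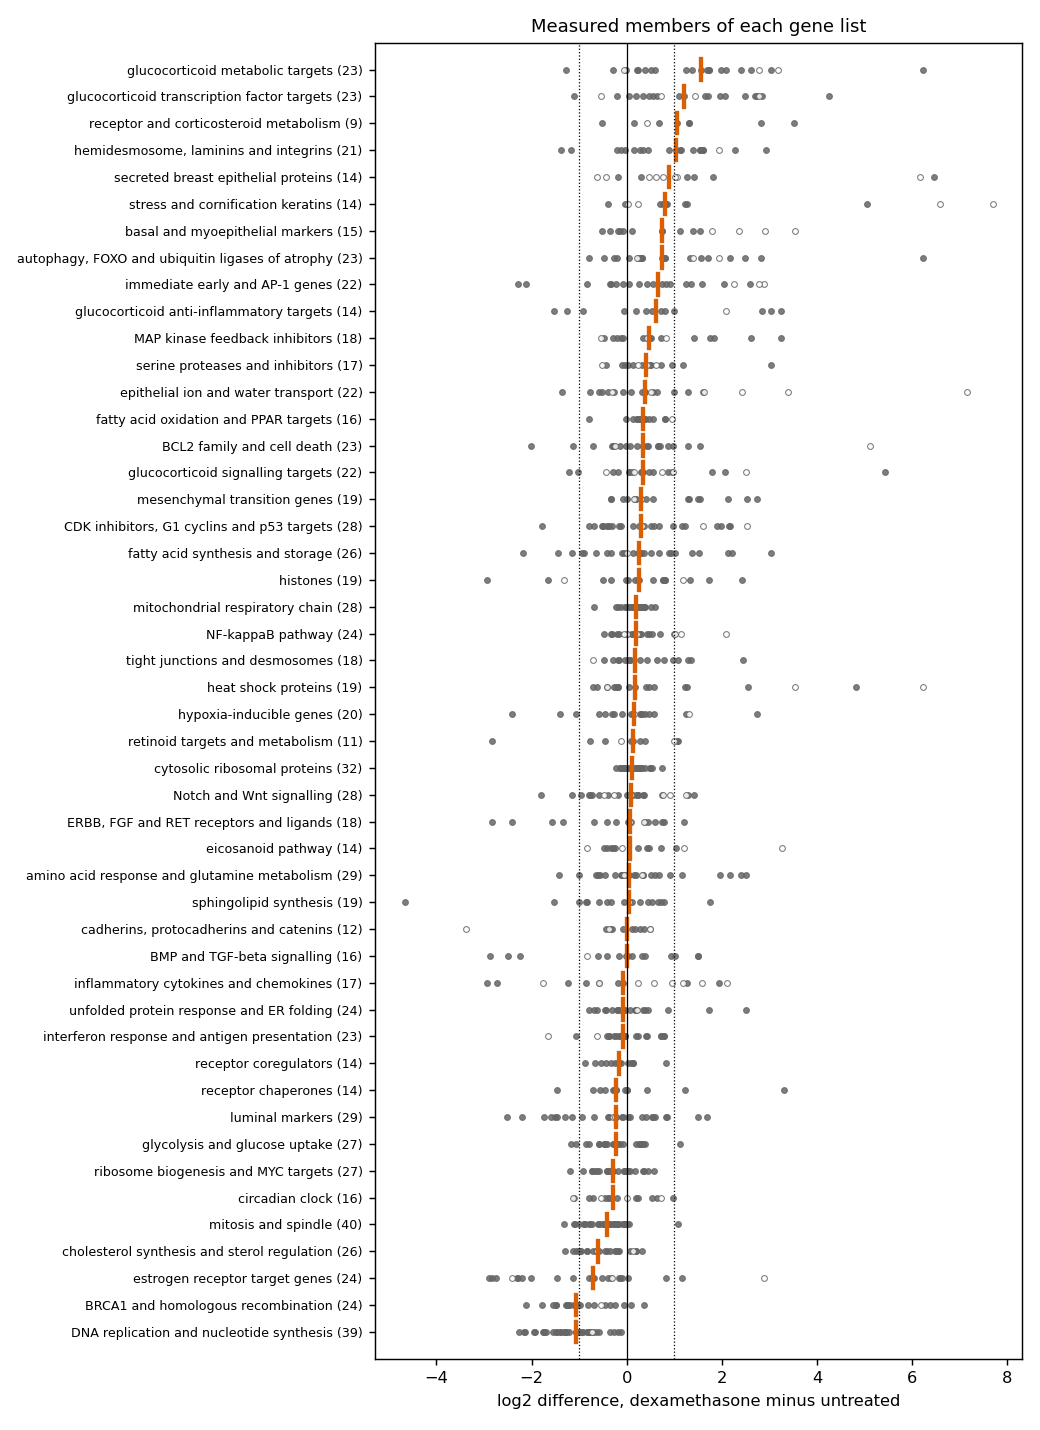
Log2 difference, dexamethasone minus untreated (horizontal axis), of every measured member of each gene list, with the number measured in parentheses. Filled points are genes detected on both arrays, open points are bounds, the orange bar is the list's median and the dotted lines mark 2-fold. Metabolic and transcription factor targets lie at the top with medians of 1.57 and 1.21, and replication and repair genes at the bottom with -1.07 and -1.06.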

How the data were processed

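RNA of 3 HCC1937 samples was extracted with Trizol, cleaned on columns, labelled with biotin and read on Illumina bead arrays, per the labels' protocols. The deposited bead table gives each probe's mean intensity, not scaled and not background-subtracted, with the bead count, the bead SE and a detection p-value against negative controls, per the file headers and values. The deposited second table holds intensity on a linear scale. Its medians (137.4, 137.5 and 137.5) and ranks point to quantile normalization by the authors, whose software is not given in the sources used here.

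Intensities were corrected by normexp with an offset of 16, quantile normalized over the 3 arrays and put on a log2 scale (limma 3.58.1, R 4.3.3). Later steps used Python 3.11.15, numpy 2.4.6, pandas 2.3.3 and matplotlib 3.10.9. Probe names came from GEO's platform annotation, which can be old (30117 probes, 8 with several symbols and not used). Gene identifiers of 30070 matched RefSeq, and 17198 probes were unnamed here. Undetected values were set to the lowest detected value of their array, or their own if higher. The procedure was checked on simulated arrays, with changes placed only in genes detected on both arrays and well above background. Recovery of changes in dim genes and the bounds for undetected values were not checked in this way.

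The members, the 51 lists (1341 genes, 92 without a named probe) and the tests were chosen with earlier results of these data known. Named genes were the 20 largest in each direction detected on both arrays, the 15 largest detected on 1, up to 8 of each list and direction, any list member within 2-fold, and genes of the receptor, chaperone and identity lists. Some were left out for length. MCM2, MCM5, MCM6, MCM7, DUT, MT1X, MT2A, MT1E, FOXO3 and the genes drawn in the figures alone lie partly outside it, chosen once the values were known. Beyond normalization and probe choice the third array gives values only, since both contrasts share the untreated array. In all 0 columns were left unused.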

Additional observations from a re-analysis of the deposited data

How the results depend on the processing

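With 1 array a group nothing here was tested, and no replicate could be left out. No paired analysis was possible because each group held 1 array. The counts of 622 higher and 496 lower genes were 306 and 177 without background correction and 289 and 165 with the deposited normalized values, and an offset of 50 gave 325 lower genes. Other settings kept both counts within 1.5 times. The median of the transcription factor targets (1.21) was 0.92 without background correction, 0.90 with the deposited values and 1.63 with no bound for undetected values. That of the metabolic targets (1.57) was 1.25 under the first 2 of these. In the same order the replication genes (-1.07) gave -0.89 and -0.87, with 17 lower under each, the repair genes (-1.06) -0.81 and -0.77, and the basement membrane and hemidesmosome genes (1.04) 0.52 and 0.48, and 0.81 with an offset of 50. Of the 302 genes past 2-fold that lists or size select, 0 changed sign under the settings tried, but 102 fell within 2-fold with the deposited values and 96 without background correction. Scaling arrays to the 75th percentile gave 530 higher and 534 lower genes, with the median of all genes at -0.04. Dim genes, with signal near background, are limited by the bound and by the background step.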
